A study of Mus musculus with 31 samples.

Results

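The microRNAs described here are the mature arms of miR-34a, miR-34b and miR-34c and the 5p arm of miR-449a, 7 of the 1966 mature microRNAs counted in the right hippocampus of C57Bl/6 J mice. They were taken by name: both arms of the 3 miR-34 hairpins, and the 5p arm of miR-449a, whose 3p arm had 1 count in all libraries together. Small RNA was sequenced from 31 hippocampi in 6 groups, each library being named as a separate biological replicate. Mice lacking the serotonin transporter (5-HTT KO) had received corticosterone (KO-corticosterone, n = 2), exercise (KO-exercise, n = 5) or water (KO-water, n = 6), and wild-type mice had received corticosterone (WT-corticosterone, n = 6), exercise (WT-exercise, n = 5) or water (WT-water, n = 7). Corticosterone is the main glucocorticoid stress hormone of rodents, both treatments lasted 4 weeks, and the water groups are the standard-housed controls. The sources used here give neither age and sex nor the form of exercise or the route of corticosterone. The knockout is of the whole animal as labelled, and no group carried any other allele.

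The miR-34 and miR-449 microRNAs form a superfamily whose 5p arms share a seed, the bases that pair with target messenger RNAs. In mammals, p53 raises transcription of Mir34a and of the Mir34b/Mir34c cluster, and the arms repress cell-cycle and survival genes. The Mir34b/Mir34c and Mir449 clusters are also abundant in multiciliated epithelia, where they are needed for motile cilia to form. In the mouse hippocampus miR-34c has been linked to memory, and the epithelium of the choroid plexus, which makes cerebrospinal fluid and lies against the hippocampus in the lateral ventricle, is one multiciliated tissue that a dissection can include.

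The mature sequences of 6 of the 7 members were matched in RefSeq (GRCm38.p6) and are shown because their seeds, bases 2 to 8 in capitals, divide the members into groups that cut across the hairpins. MiR-34c-5p is named only.
mmu-miR-34a-5p: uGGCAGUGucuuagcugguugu
mmu-miR-34b-5p: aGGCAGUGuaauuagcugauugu
mmu-miR-449a-5p: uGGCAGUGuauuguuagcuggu
mmu-miR-34b-3p: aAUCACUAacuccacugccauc
mmu-miR-34c-3p: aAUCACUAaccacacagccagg
mmu-miR-34a-3p: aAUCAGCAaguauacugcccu
The seed of the 5p arms shown was carried by 4 of the 1679 mature sequences in the table, the fourth being miR-449c-5p. MiR-34c-5p had no mature entry there, so this count leaves it out and says nothing of its seed. The seed of miR-34b-3p and miR-34c-3p was carried by those 2 arms and by no other sequence in the table, and that of miR-34a-3p by itself alone. Compared position by position without gaps, miR-34a-5p and miR-449a-5p were the same at 15 of 22 positions, and miR-34a-5p and miR-34b-5p at 11 of 22. Positions 2 to 9 were shared in both pairs, and position 1 also in the first. MiR-34b-5p has 23 bases and miR-34a-5p has 22, so a count without gaps can understate their likeness. MiR-34b-3p and miR-34c-3p were the same at 17 of 22 positions and differed, counted from the 5′ end with miR-34b-3p first, by U11C, C12A, U16A, U21G and C22G. The sources used here do not say how reads fitting more than 1 microRNA were counted.

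The hairpins place the members at 3 sites of the genome (GRCm38, gene models of GENCODE vM21). Mir34a lies at chr4:150068454-150068555 on the plus strand, within an exon of Gm37795, a gene model that the annotation marks as awaiting experimental evidence (class TEC). Mir34b (chr9:51103562-51103645) and Mir34c (chr9:51103034-51103110) lie on the minus strand of chromosome 9, 451 bases apart, inside an intron of Btg4, which is transcribed from the opposite strand. Mir449a (chr13:113037534-113037624) lies with Mir449b and Mir449c on the plus strand of chromosome 13 inside an intron of Cdc20b, which is transcribed in the same direction. The Mir34a and Mir34b hairpins are shown to place each arm on its stem, with the mature arms in capitals, the 5p arm first.
Mir34a: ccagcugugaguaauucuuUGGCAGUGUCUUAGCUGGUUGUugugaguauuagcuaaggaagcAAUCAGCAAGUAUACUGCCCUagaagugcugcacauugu
Mir34b: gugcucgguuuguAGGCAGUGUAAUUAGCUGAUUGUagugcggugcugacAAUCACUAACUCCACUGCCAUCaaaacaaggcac

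Total counts per library lay between 1011285 and 4052174, and a median of 924 microRNAs was detected. No messenger RNA was counted, so the loss of the transporter transcript in the mice labelled KO could not be verified here. Levels are CPM, counts relative to library size, after scaling all 31 libraries together, and fold changes come from a fit of the 2 groups compared. Of the KO-water libraries, replicates 3, 4 and 6 stood apart from replicates 1, 2 and 5 for several members, and the authors' own table for the 2 water groups had only replicates 3, 4 and 6 of KO-water. Fold changes, interactions and 3p ratios that rest on KO-water are therefore given with all 6 and with each set of 3. Sample codes begin with G or H, and although nothing says what that letter stands for, the called fold changes and ratios of wild-type mice and of KO-water are also given within each letter. Letter H has 1 library of WT-corticosterone and 2 of WT-water. Both KO-corticosterone libraries have letter H, against 2 of the 6 KO-water libraries. Corticosterone and letter therefore cannot be fully told apart in knockout mice or in the corticosterone interaction.

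The rows carry the mouse prefix. By mean over all libraries mmu-miR-34c-5p was the most abundant member at 1518 ± 846 CPM (SD, n = 31), ranking 71st among the microRNAs of the tables. It was followed by mmu-miR-34b-5p at 1362 ± 655 CPM and mmu-miR-34a-5p at 953.3 ± 180 CPM. In WT-water the miR-34b and miR-34c 5p arms were in the reverse order, with means of 1567 and 1282 CPM. The median ratio of miR-34b-5p to miR-34c-5p over all libraries was 1.05. The passenger 3p arms were lower: miR-34b-3p averaged 194.1 ± 90.4 CPM, miR-34c-3p 93.55 ± 68.3 CPM and miR-34a-3p 12.72 ± 3.88 CPM. The level of mmu-miR-449a-5p averaged 22.11 ± 10.7 CPM. Together the 7 held 0.421% of all counts on average, with a range of 0.215% to 0.983% over libraries. The rest of the miR-449 cluster was close to the limit of detection, with a mean of 1.65 CPM for miR-449c-5p and, over the 31 libraries together, 3 counts of miR-449c-3p, 1 of miR-449b and 1 of miR-449a-3p. None of these 4 arms passed the filter on low counts in any comparison, whereas all 7 members passed it in every comparison.

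The members differed in how steady they were across libraries. MiR-34a-5p varied least, with a coefficient of variation of 18.9%, against 48.1% for miR-34b-5p, 55.7% for miR-34c-5p and 73% for miR-34c-3p. In WT-corticosterone, miR-34c-3p reached 271.4 CPM in 1 library and 14.54 CPM in another. With the 6 groups placed in the order of their mean levels, the ranges of neighbouring groups overlapped in 34 of 35 pairs over the 7 members, so that order is not resolved for most neighbours.

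**Figure D1:**
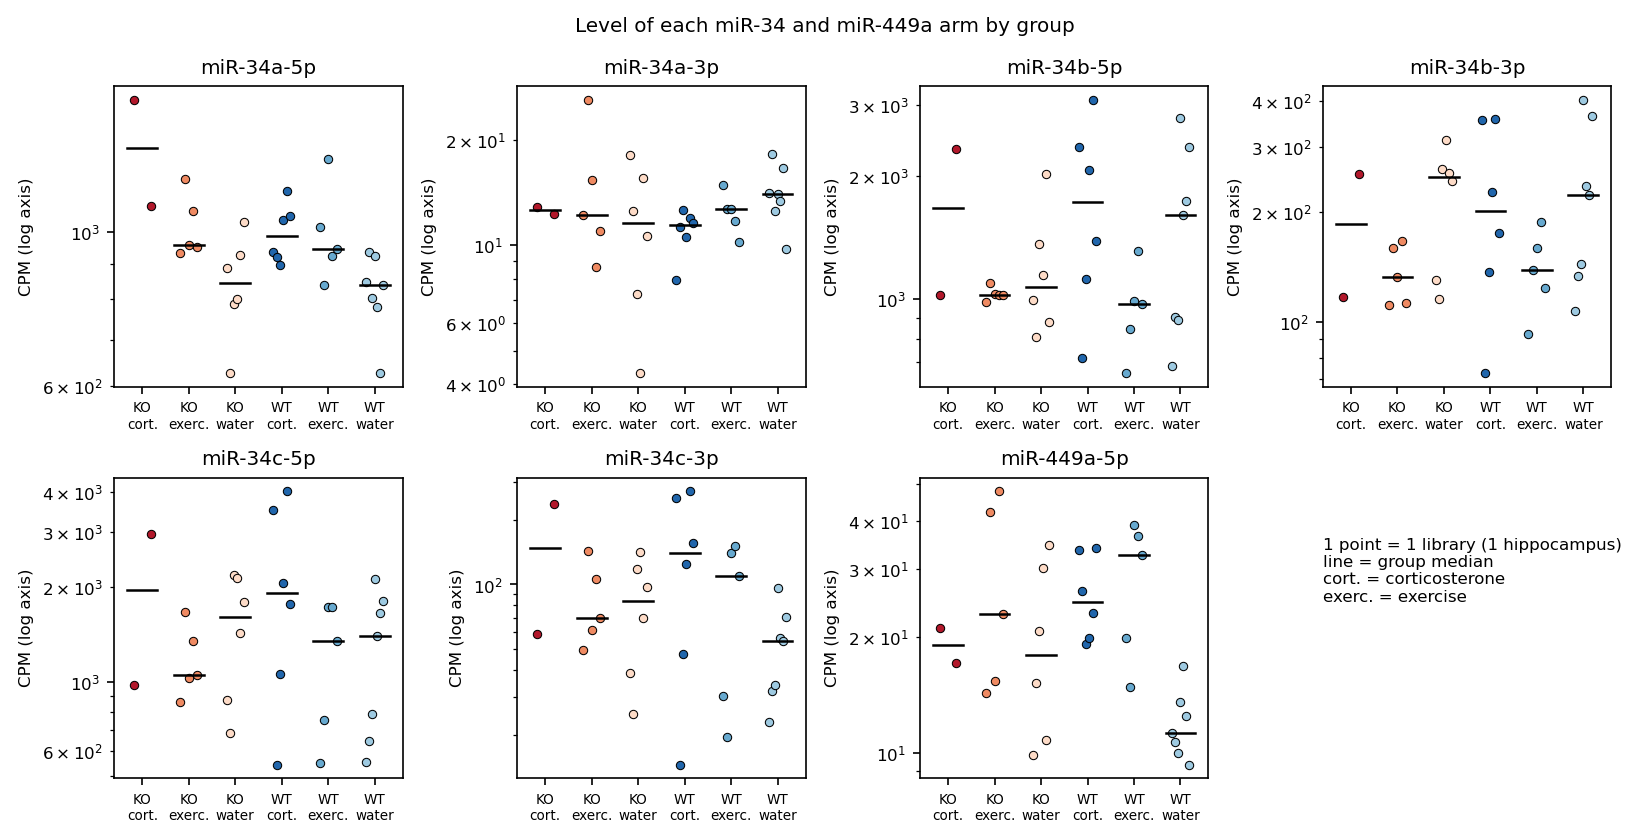
CPM of each member by group, 1 point per library, on a log axis with its own scale in each panel; the line is the group median. The 6 WT-corticosterone libraries lie above every WT-water library for miR-449a-5p, while the ranges of miR-34b-5p and miR-34b-3p in those groups overlap widely.

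MiR-449a-5p was the member that changed most clearly in wild-type mice. Corticosterone and exercise were each set against the same 7 WT-water libraries, so the 2 comparisons are not independent. MiR-449a-5p ranged from 19.24 to 33.94 CPM in WT-corticosterone, with a median of 24.65 CPM. The WT-exercise libraries had 19.85, 14.84, 38.95, 36.58 and 32.66 CPM. In WT-water the range was 9.346 to 16.79 CPM, with a median of 11.29 CPM. All 6 WT-corticosterone libraries and 4 of the 5 WT-exercise libraries lay above every WT-water library, and replicate 2 of WT-exercise lay inside the WT-water range. The groups did not overlap for 14.1% of all microRNAs tested between WT-corticosterone and WT-water.

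The log2 fold change of miR-449a-5p was 1.18 ± 0.20 (SE) in WT-corticosterone against WT-water, with an adjusted p of 0.00042 by edgeR's quasi-likelihood test (Benjamini-Hochberg over all microRNAs tested). In WT-exercise against WT-water it was 1.28 ± 0.26, with an adjusted p of 0.00444 by the same test. Its call did not rest on 1 library: it passed in all 13 fits that left out 1 library of the corticosterone comparison, and in all 12 of the exercise comparison. Within code letter G the log2 fold change was 0.94 for corticosterone (adjusted p = 0.0102 by edgeR) and 1.00 for exercise (adjusted p = 0.19). Within letter H it was 1.77 for exercise (adjusted p = 0.0117), and for corticosterone, with 1 library against 2, 1.75, to which no p is given.

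In WT-corticosterone against WT-water, 3 of the 7 members rose and 0 fell, with adjusted p below 0.05, where 41.9% of all microRNAs tested passed in either direction. Of all microRNAs tested, 24.9% rose and 17% fell, so the members' count is not set apart from the table as a whole. The median log2 fold change of the members was 0.34, and that of all microRNAs tested was 0.06. MiR-34c-3p, which shares its seed with miR-34b-3p, ranged from 14.54 to 271.4 CPM in WT-corticosterone (median 140.4) and from 22.86 to 95.96 CPM in WT-water (median 54.62). Of the 6 WT-corticosterone libraries, 4 lay above every WT-water library and replicate 2 lay below all of them. Its log2 fold change was 1.55 ± 0.51, with an adjusted p of 0.0244 by edgeR.

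MiR-34a-5p, the p53-induced arm best known as a tumour suppressor, made a smaller change. It ranged from 897.2 to 1144 CPM in WT-corticosterone (median 987.8) and from 626.3 to 936.8 CPM in WT-water (median 839.2). Its log2 fold change was 0.34 ± 0.12, with an adjusted p of 0.0305 by edgeR. Both calls depend on the libraries used. The miR-34a-5p call was lost without any 1 of WT-corticosterone replicates 3, 4, 5 and 6 or of WT-water replicates 2, 3, 4, 5 and 6, at log2 fold changes of 0.20 to 0.34 and adjusted p of 0.0532 to 0.12. The miR-34c-3p call was lost without any 1 of WT-corticosterone replicates 1, 5 and 6 or of WT-water replicates 2, 3, 5 and 6, at 1.22 to 1.47 and adjusted p of 0.0552 to 0.0719. Without a filter on low counts both were lost (miR-34a-5p 0.29, adjusted p = 0.233; miR-34c-3p 1.496, adjusted p = 0.144, edgeR), and so within code letter G (0.19, adjusted p = 0.25; 1.54, adjusted p = 0.115). The miR-34a-5p call was also lost with DESeq2's size factors (0.29, adjusted p = 0.056), in the joint fit of all groups (0.28, adjusted p = 0.0977) and without scaling factors (0.22, adjusted p = 0.165).

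The other 4 members did not pass the test for corticosterone in wild-type mice. MiR-34c-5p, the guide strand of its hairpin, had a log2 fold change of 0.84 ± 0.42 (adjusted p = 0.121 by edgeR), and it passed without WT-corticosterone replicate 2, at 0.98 and an adjusted p of 0.0437. MiR-34b-5p was at 0.27 ± 0.36, miR-34b-3p at 0.02 ± 0.37 and miR-34a-3p at -0.29 ± 0.19. The spread of miR-34b-5p among corticosterone-treated wild-type mice was wide, at 717.6 to 3084 CPM, against 686.8 to 2784 CPM in WT-water. That spread limits what the comparison can resolve for the arms of Mir34b.

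In WT-exercise against WT-water, 1 of the 7 members rose, miR-449a-5p, and 0 fell, where 32.5% of all microRNAs tested passed in either direction, 19.9% rising and 12.7% falling. The median log2 fold change was -0.03 for the members and 0.04 for all microRNAs tested. Both arms of Mir34b had lower means in WT-exercise, at log2 fold changes of -0.68 ± 0.33 for the 5p and -0.68 ± 0.33 for the 3p arm, but neither passed (adjusted p = 0.124 and 0.118 by edgeR). MiR-34b-5p was at 658.1, 845.6, 990.3, 1312 and 973.8 CPM in WT-exercise and ranged from 686.8 to 2784 CPM in WT-water, with a median of 1606 CPM. The high end of the WT-water range, above 1312 CPM, was not reached by any exercised wild-type mouse.

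The remaining values for exercise in wild-type mice were 0.83 ± 0.48 for miR-34c-3p, 0.31 ± 0.14 for miR-34a-5p, -0.03 ± 0.38 for miR-34c-5p and -0.15 ± 0.20 for miR-34a-3p on the log2 scale. Replicate 2 of WT-exercise decided 2 of these: without it, miR-34c-3p passed at 1.10 (adjusted p = 0.0355 by edgeR) and miR-34a-5p at 0.38 (adjusted p = 0.0257). In that library miR-34c-3p was at 19.6 CPM and miR-449a-5p at 14.84 CPM, the lowest values of its group. Between WT-corticosterone and WT-exercise directly, 0 of the 7 members passed in edgeR, as did 0% of all microRNAs tested. At an unadjusted p below 0.05 were 20 of 521 microRNAs and 1 member, miR-34b-5p (0.92 ± 0.34, unadjusted p = 0.017 in edgeR's fit across all microRNAs, adjusted p = 0.74). DESeq2 also called 0 members there.

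**Figure D2:**
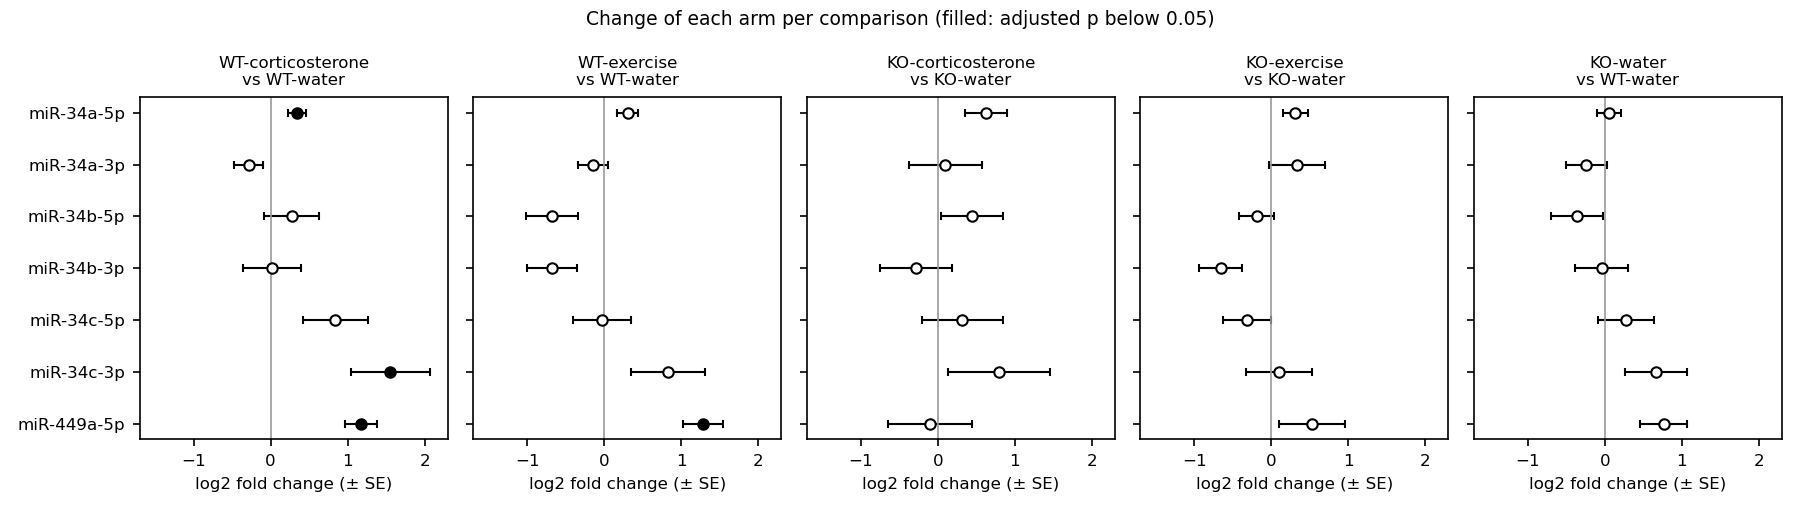
Log2 fold change of each member with its standard error in 5 comparisons, filled where the adjusted p is below 0.05. Filled points are miR-34a-5p, miR-34c-3p and miR-449a-5p for corticosterone in wild-type mice and miR-449a-5p for exercise in wild-type mice.

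In knockout mice no member passed for either treatment when all 6 KO-water libraries were used. In KO-exercise against KO-water edgeR called 0 of 7 members, where 4.02% of all microRNAs tested passed, and in KO-corticosterone against KO-water 0 of 7, where 0.521% passed. DESeq2 called 0 members in both. At an unadjusted p below 0.05 in edgeR were 86 of 523 microRNAs tested for exercise and 40 of 576 for corticosterone. In each, 1 of these was a member. For exercise this was miR-34b-3p, at 111.3, 159.8, 132.6, 166.3 and 112.9 CPM in KO-exercise and 115.6 to 314.5 CPM in KO-water (median 249.5), a log2 fold change of -0.66 ± 0.28 (unadjusted p = 0.0355 in edgeR). For corticosterone it was miR-34a-5p, at 1549 and 1090 CPM in KO-corticosterone and between 626.7 and 1033 CPM over the KO-water libraries, which gave a log2 fold change of 0.63 ± 0.27 (unadjusted p = 0.0463 in edgeR). With the libraries of only these 2 groups scaled together, 1 of the 2 KO-corticosterone libraries lay above every KO-water library for miR-34a-5p.

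MiR-449a-5p in knockout mice was at 21.1 and 17.11 CPM in KO-corticosterone, at 14.37, 42.22, 15.43, 47.77 and 22.9 CPM in KO-exercise, and at 9.915 to 34.72 CPM in KO-water (median 17.98). Of the KO-exercise libraries, 3 lay within the KO-water range and 2 above it. The log2 fold changes were -0.10 ± 0.54 for corticosterone and 0.53 ± 0.43 for exercise. Whether these effects differ from those in wild-type mice was tested as an interaction of genotype and treatment. For corticosterone the difference (KO effect minus WT effect) was -1.15 ± 0.48 on the log2 scale, with an unadjusted p of 0.0247 and an adjusted p of 0.447 in edgeR. For exercise it was -0.83 ± 0.51, with an adjusted p of 0.38.

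In each interaction fit 0 of 7 members passed in edgeR, as did 0% of all microRNAs tested. At an unadjusted p below 0.05 in edgeR the number of members was 1 for corticosterone, beside 65 of 630 microRNAs tested. For exercise it was 0, beside 101 of 571. DESeq2 called 0 members for both. KO-exercise against WT-exercise likewise gave 0 of 7 members and 0% of all microRNAs tested in edgeR, and 0 members in DESeq2. At an unadjusted p below 0.05 in edgeR it gave 0 members and 5 of 517 microRNAs. There miR-449a-5p averaged 28.54 ± 15.5 CPM in KO-exercise and 28.57 ± 10.6 CPM in WT-exercise (SD, n = 5 each).

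In KO-water against WT-water edgeR called 0 of 7 members, and 0% of all 545 microRNAs tested. The count at an unadjusted p below 0.05 was 1 member and 179 microRNAs, and DESeq2 called 0 members and 115 microRNAs. The member was miR-449a-5p, at 9.915 to 34.72 CPM in KO-water and 9.346 to 16.79 CPM in WT-water, a log2 fold change of 0.77 ± 0.30 (adjusted p = 0.102 by edgeR). It passed without KO-water replicate 1 or 5, at 0.91 and 0.89 with adjusted p of 0.0374 and 0.0408. MiR-34c-3p was at 0.67 ± 0.40 and miR-34c-5p at 0.28 ± 0.36, and the other 4 members lay between -0.36 and 0.06.

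The 6 KO-water libraries were not alike for these microRNAs. Replicates 3, 4 and 6 had miR-449a-5p at 20.78 to 34.72 CPM, against 9.915 to 15.17 CPM in replicates 1, 2 and 5, and miR-34c-5p at 1793 to 2192 CPM, against 689 to 1426 CPM. MiR-34c-3p was likewise at 97.68 to 141.3 CPM against 25.11 to 69.77 CPM, while miR-34a-3p ran the other way, at 4.309 to 10.65 CPM against 12.56 to 18.18 CPM. For these 4 members the sets do not overlap, and for the other 3 they do. With only replicates 3, 4 and 6 set against WT-water, 2 members rose, miR-449a-5p by 1.42 (adjusted p = 0.000114 by edgeR) and miR-34c-3p by 1.35 (adjusted p = 0.00681), in a fit where 60.9% of all microRNAs passed. With only replicates 1, 2 and 5, 0 members and 0% of all microRNAs passed, and the values were -0.03 and -0.22.

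The same division bears on the knockout treatment results. With KO-water replicates 3, 4 and 6 only, miR-34b-3p fell by 1.06 and miR-34c-5p fell by 0.84 on the log2 scale in KO-exercise (adjusted p = 0.00185 and 0.00883 by edgeR), where 32.8% of all microRNAs passed. The interaction for miR-449a-5p then passed for exercise (-1.31, adjusted p = 0.0319) and for corticosterone (-1.67, adjusted p = 0.00413), and that for miR-34a-3p passed for corticosterone (1.06, adjusted p = 0.045), where 42.3% and 34% of all microRNAs passed. With replicates 1, 2 and 5 only, 0 members passed in the exercise fit, where 21.7% of all microRNAs passed, and 0 in the interactions, where 0% passed. For KO-corticosterone against KO-water 0 members passed with either set, where 19.2% of all microRNAs passed with replicates 3, 4 and 6 and 7.08% with replicates 1, 2 and 5. Which of the 2 sets represents untreated knockout mice was not tested.

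The 2 hairpins of the Mir34b/Mir34c cluster rose and fell together between mice. Over the 31 libraries, after subtracting group means from log2 CPM, the correlation was 0.951 between the arms of miR-34c, 0.902 between those of miR-34b, and 0.863 between the 2 5p arms. The arms of miR-34a had a correlation of 0.190, and miR-34a-5p with miR-34b-5p one of 0.050. MiR-449a-5p, which shares the 5p seed, had 0.042 with miR-34b-5p and 0.442 with miR-34c-5p. The points of each correlation share libraries, scaling and depth, and miR-34a-3p rests on 5 to 61 counts per library.

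The ratio of the 2 hairpins was nevertheless not the same in all groups. In WT-corticosterone the ratio of miR-34b-3p to miR-34c-3p ranged from 1.12 to 4.87, with a median of 1.61. The WT-exercise libraries had 3p ratios of 3.03, 6.93, 1.14, 1.24 and 1.13. In WT-water the 3p ratio stayed between 4.04 and 5.16 and the 5p ratio between 1.05 and 1.39, although the level of miR-34b-5p itself varied 4.05-fold between those mice. Of the treated wild-type libraries, 5 of 6 with corticosterone and 4 of 5 with exercise had 3p ratios below every WT-water library. WT-exercise replicate 2, at 6.93, lay above all of them. The same count was not made for ratios of other microRNAs. Of all microRNAs tested singly, 41.9% passed with corticosterone and 32.5% with exercise in wild-type mice. Whether the ratio is set apart from other pairs was not tested.

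Ratios of arms and of hairpins were compared by two-sided exact permutation tests on log2 ratios, 35 tests in all, of which 12 had an unadjusted p below 0.05 and 3 an adjusted p below 0.05. The 3p ratio of miR-34b over miR-34c was lower in WT-corticosterone than in WT-water by 1.16 on the log2 scale (-1.16, exact p = 0.00408, adjusted p = 0.0476), with 5 of 6 libraries below every WT-water library. It was also lower in KO-water than in WT-water (-0.55, exact p = 0.0035, adjusted p = 0.0476), at 2.21 to 4.53 in KO-water (median 2.91) and 4.04 to 5.16 in WT-water (median 4.17). The third was the 5p over 3p ratio of miR-34a, at 68.4 to 110 in WT-corticosterone (median 89.3) and 36.6 to 82 in WT-water (median 58.1), a difference of 0.62 (exact p = 0.00408, adjusted p = 0.0476). For exercise in wild-type mice the 3p ratio of miR-34b over miR-34c differed by -1.10 and did not pass (exact p = 0.0316, adjusted p = 0.11).

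These 3 calls stand at the edge of the threshold. Each was lost on leaving out any 1 of 12 libraries, with adjusted p of 0.0571 to 0.114 in exact permutation tests, and kept only without WT-corticosterone replicate 2 in the corticosterone comparison or without KO-water replicate 2 in the other. The differences kept their sign throughout, at -1.43 to -1.005 and -0.68 to -0.47 for the 3p ratios and 0.51 to 0.71 for the miR-34a arms. With KO-water replicates 1, 2 and 5 only, the 3p ratio differed from WT-water by -0.19 (adjusted p = 0.233, exact), and with replicates 3, 4 and 6 only by -0.91 (adjusted p = 0.0365, exact). Within code letter G the differences were -0.98 and -0.53 for the 3p ratio (corticosterone and KO-water) and 0.60 for the miR-34a arms, each with an adjusted p of 0.238 in exact permutation tests. Within letter H they were -2.03, -0.60 and 0.67, where no exact p can fall below 0.333.

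The 5p ratio of miR-34b over miR-34c followed the same direction without passing. It was 0.669 to 1.32 in WT-corticosterone (median 0.898), and 1.2, 1.12, 0.573, 0.757 and 0.725 in WT-exercise, against 1.05 to 1.39 in WT-water. The differences were -0.42 for corticosterone (exact p = 0.0181, adjusted p = 0.0903) and -0.54 for exercise (exact p = 0.0114, adjusted p = 0.0758). In knockout mice the 3p ratio was 2 and 1.08 in KO-corticosterone and 2.23, 1.11, 2.14, 1.56 and 1.62 in KO-exercise, against 2.21 to 4.53 in KO-water. The differences were -1.01 (exact p = 0.0357, the smallest that 2 against 6 allows, adjusted p = 0.114) and -0.82 (exact p = 0.013, adjusted p = 0.0758). With KO-water replicates 3, 4 and 6 only they were -0.65 for KO-corticosterone (exact p = 0.1, the smallest that 2 against 3 allows) and -0.45 for KO-exercise (exact p = 0.0893, adjusted p = 0.167). With replicates 1, 2 and 5 only they were -1.37 (exact p = 0.1) and -1.18 (exact p = 0.0179, adjusted p = 0.0903).

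KO-water replicates 3, 4 and 6 had 5p ratios of 0.624, 0.537 and 0.49, and replicates 1, 2 and 5 had 1.14, 1.17 and 1.42. The main axis of variation within groups, the first principal component of log2 CPM of all microRNAs after subtracting group means, held 38.8% of the variance. Higher scores went with lower 5p ratios in each group but WT-water, though not every neighbouring library was in that order. KO-water replicates 3, 4 and 6 scored 0.342, 0.57 and 0.502, and replicates 1, 2 and 5 scored -0.476, -0.484 and -0.454. WT-exercise replicates 1 and 2, with 5p ratios of 1.2 and 1.12, scored -0.42 and -0.552, and replicates 3, 4 and 5, with 0.573, 0.757 and 0.725, scored 0.497, 0.252 and 0.223. KO-exercise replicates 1 to 5 scored -0.333, 0.327, -0.124, 0.166 and -0.037, with 5p ratios of 1.14, 0.655, 1, 0.758 and 0.972. WT-corticosterone replicates 1, 5 and 6 scored 0.267, 0.244 and 0.279, with 0.669, 0.764 and 0.789. Replicates 2, 3 and 4 of that group scored -0.481, -0.216 and -0.093, with 1.32, 1.06 and 1.01. The KO-corticosterone libraries scored -0.161 and 0.161, with 1.05 and 0.792. The 7 WT-water libraries lay between -0.053 and 0.031. MiR-449a-5p was higher in the libraries of higher score in KO-water (20.78 to 34.72 against 9.915 to 15.17 CPM). In WT-exercise it was at 19.85 and 14.84 CPM in replicates 1 and 2, and at 38.95, 36.58 and 32.66 CPM in replicates 3, 4 and 5. KO-exercise replicates 2 and 4, of positive score, had 42.22 and 47.77 CPM. Replicates 1, 3 and 5 of that group had 14.37, 15.43 and 22.9 CPM. WT-corticosterone replicates 1, 5 and 6 had 33.61, 23.04 and 33.94 CPM, overlapping replicates 2, 3 and 4 at 26.26, 19.24 and 19.91 CPM. In KO-corticosterone miR-449a-5p ran the other way, at 21.1 CPM with a score of -0.161 and 17.11 CPM with 0.161. The part of that axis in the ratios and in miR-449a-5p was not tested.

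**Figure D3:**
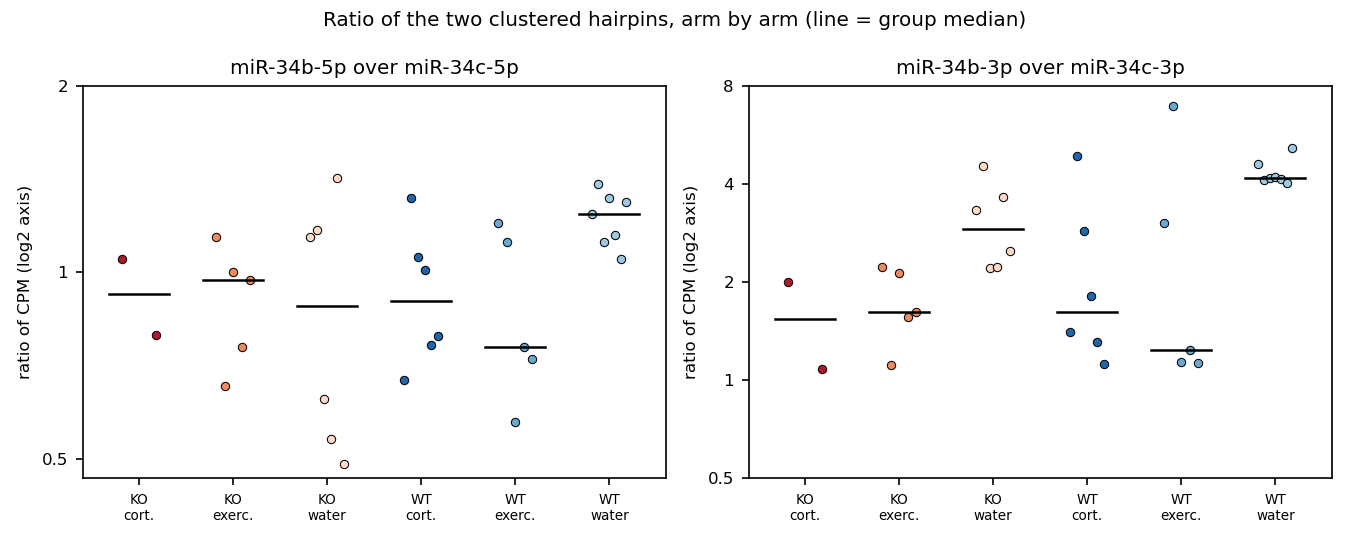
Ratio of miR-34b to miR-34c for the 5p arms (left) and the 3p arms (right) in each library, on log2 axes, with the group median as a line. The WT-water libraries lie close together in both panels, and the other groups spread mostly below them.

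The microRNAs most like the Mir34b/Mir34c arms across libraries were mostly of the choroid plexus list. Among 457 microRNAs with a mean of at least 10 CPM, and after subtracting group means, miR-34b-5p was most like miR-448-3p (r = 0.901), miR-1264-3p (0.866) and miR-764-3p (0.828). MiR-34c-5p was most like miR-448-5p (0.937), miR-764-5p (0.902) and miR-204-3p (0.893). MiR-34b-3p and miR-34c-3p had the same kind of neighbours, led by miR-448-5p (0.915) and miR-764-5p (0.910). MiR-448-5p is the other arm of the listed miR-448-3p and is not in the list. Over the 9 listed microRNAs with a mean of at least 10 CPM the correlation ran from 0.392 to 0.901 for miR-34b-5p, 0.146 to 0.837 for miR-34b-3p, 0.051 to 0.902 for miR-34c-5p and -0.050 to 0.910 for miR-34c-3p, each lowest with miR-211-5p. MiR-1298-5p of the list was next lowest for each, at 0.615, 0.321, 0.185 and 0.047 in the same order. Of the nearest neighbours named above, miR-448, miR-764 and miR-1264 are encoded in introns of Htr2c, the serotonin 2C receptor gene. Choroid plexus epithelium transcribes that gene strongly. Host genes of the other listed microRNAs, miR-1298 among them, are not given here, so the host does not set these neighbours apart. MiR-204 is abundant in that epithelium, but the neighbour was miR-204-3p, with 6108 counts over all libraries against 613101 for miR-204-5p. MiR-204-5p had correlations of 0.811 with miR-34b-5p, 0.708 with miR-34b-3p and 0.612 with miR-34c-5p, and its lowest with miR-34c-3p. These correlations describe 31 libraries that share scaling, and no test was made.

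The other members had other neighbours. MiR-449a-5p was most like miR-409-3p (0.880), of the imprinted Dlk1-Dio3 locus, miR-16-5p (0.845) and miR-378d (0.840), and its correlation with the choroid plexus microRNAs ran from -0.585 for miR-1298-5p to 0.476 for miR-764-5p. MiR-34a-5p was most like miR-26b-5p (0.623), miR-200b-3p (0.616) and miR-429-3p (0.600), and miR-34a-3p most like miR-758-3p (0.682). Thus the highest likeness for the miR-34a arms was well under that of the Mir34b/Mir34c arms.

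**Figure D4:**
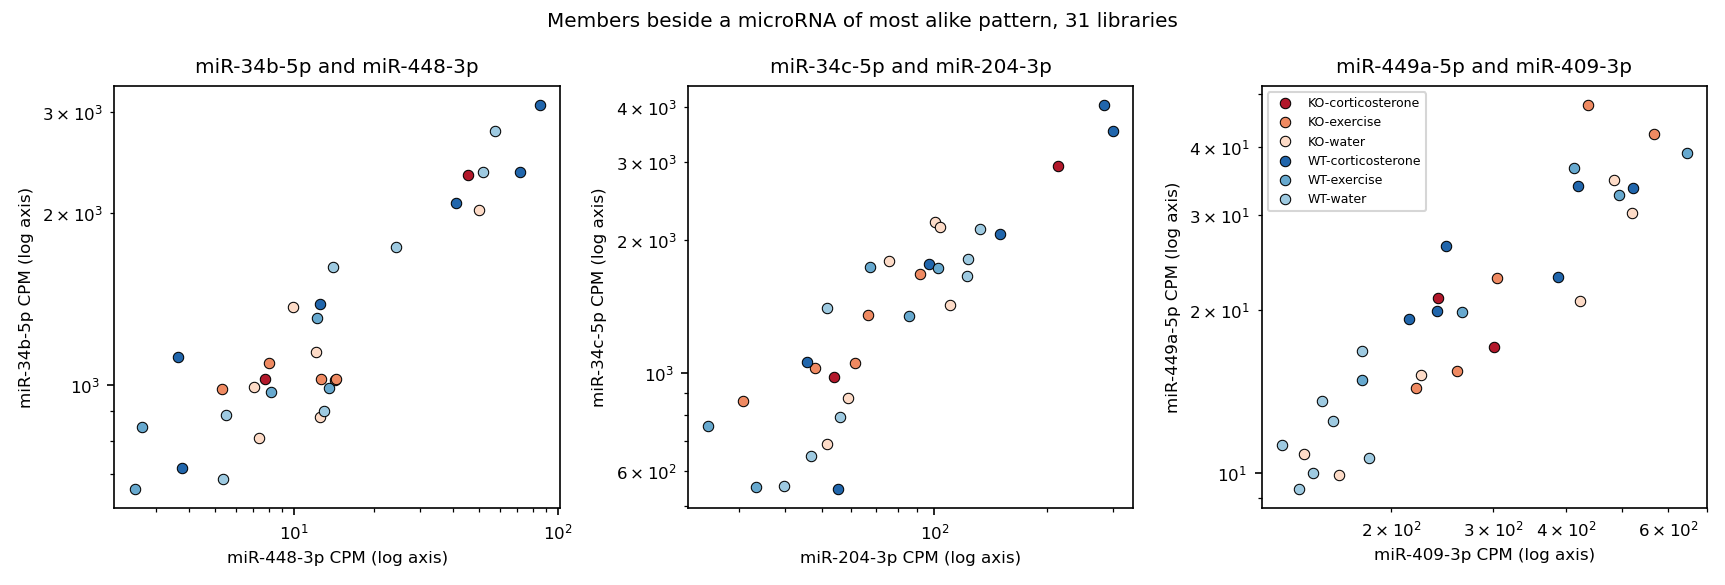
Level of miR-34b-5p against miR-448-3p, miR-34c-5p against miR-204-3p and miR-449a-5p against miR-409-3p, 1 point per library, on log axes, coloured by group. Libraries high in 1 microRNA of a pair are high in the other within several groups, with r of 0.901, 0.893 and 0.880 after subtracting group means.

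Of the 12 choroid plexus microRNAs listed, 11 had counts, and miR-211-3p was at 0. Their summed level was 7118 and 16890 CPM in KO-corticosterone, 5446 to 6566 CPM in KO-exercise, 5533 to 19585 CPM in KO-water, 5493 to 27596 CPM in WT-corticosterone, 4726 to 8594 CPM in WT-exercise and 5038 to 22449 CPM in WT-water. No group was free of them, and the widest ranges were in the groups where miR-34b-5p also ranged most widely. The sum is mostly miR-204-5p, with 613101 counts over all libraries against 18857 for miR-1298-5p, the next. It therefore says little of the other listed microRNAs. In WT-corticosterone against WT-water 1 of the 10 tested rose, miR-764-5p (1.65 ± 0.47, adjusted p = 0.0124 by edgeR), and 0 fell, with a median log2 fold change of 0.56. In WT-exercise 0 rose and 2 fell, miR-1298-5p (-3.13 ± 0.83) and miR-1298-3p (-1.38 ± 0.37), with a median of -0.80. In such tissue samples a change in how much choroid plexus was taken and a change in RNA per cell cannot be told apart, and the part of choroid plexus in the changes of the members was not tested.

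Some markers of other cells moved as well, where 24.9% of all microRNAs tested rose and 17% fell with corticosterone and 19.9% rose and 12.7% fell with exercise. Of 5 microglia and immune cell microRNAs, 4 rose in WT-corticosterone and 3 in WT-exercise, and 0 fell. Their summed level was 2795 to 8336 CPM in WT-corticosterone, 2774 to 10895 CPM in WT-exercise and 2435 to 3460 CPM in WT-water. Most of that sum was miR-150-5p, with 266273 counts over all libraries against 13148 for miR-223-3p, the next. Of the 2 oligodendrocyte microRNAs, miR-338-3p fell in both (-1.13 ± 0.26 and -1.13 ± 0.31), and their summed level was 1123 to 5396 CPM, 1045 to 6042 CPM and 4799 to 6259 CPM in the same 3 groups. Red blood cell microRNAs, 3 in all, gave 1 rise and 1 fall with corticosterone and 1 fall with exercise, at summed levels of 477 to 1197, 454.5 to 1862 and 1154 to 2415 CPM. Of 6 neuronal microRNAs, 2 rose and 1 fell with corticosterone, and 1 rose and 1 fell with exercise. The summed neuronal level was 354306 to 457834 CPM in WT-corticosterone, 370307 to 461349 CPM in WT-exercise and 347086 to 437668 CPM in WT-water. The part of these cells in the change of miR-449a-5p was not tested.

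Of 9 other microRNAs linked to p53 in mammals, 7 were tested in the wild-type comparisons, and 3 rose and 0 fell with each treatment, where 24.9% of all microRNAs tested rose with corticosterone and 19.9% with exercise. MiR-16-5p, which represses cyclins, rose by 1.41 ± 0.20 with corticosterone and by 1.60 ± 0.25 with exercise on the log2 scale. MiR-194-5p rose by 1.51 ± 0.24 and by 1.71 ± 0.22, and miR-192-5p, encoded beside a miR-194 hairpin, by 0.73 ± 0.22 and by 0.86 ± 0.26. The other 4 (miR-15a-5p, miR-107-3p, miR-143-3p and miR-145a-5p) passed in neither comparison, and the median log2 fold change of the list was -0.03 with corticosterone and 0.01 with exercise. In knockout mice 0 of 7 passed with exercise and 0 of 8 with corticosterone in edgeR, with 1 and 2 at an unadjusted p below 0.05, and 0 of 7 passed between KO-water and WT-water, with 4 at an unadjusted p below 0.05. Of all microRNAs tested, 86 of 523, 40 of 576 and 179 of 545 had an unadjusted p below 0.05 in these fits, in that order.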

How the data were processed

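The values are read counts per mature microRNA, deposited by the authors without normalization as 5 tables of 1966 rows, each for a pair of groups. The submitters' processing notes name BWA, cutadapt 2.3, featureCounts, limma 3.54.1 and Subread, and the GRCm38 (mm10) build, without their roles or order. Columns were matched to samples through the sample code in the labels. Counts of libraries present in more than 1 table were identical, 0 columns stayed unmatched, and no pair of libraries in a group agreed within sampling noise. The table setting KO-water beside WT-water had columns for 3 of the 6 KO-water libraries and 1 KO-exercise library; groups here follow the labels.

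Each comparison was fitted on its groups alone with edgeR 4.0.16 in R 4.3.3 (filterByExpr, TMM scaling, robust glmQLFit, quasi-likelihood F test), with Benjamini-Hochberg adjustment over all microRNAs tested and calls below 0.05. Standard errors were derived from the F statistic. Interactions used the 4 groups involved. Ratios added 0.5 CPM to each arm and were compared by exact permutation. Likeness is Pearson's correlation of log2 CPM after subtracting group means, with the 3 highest per member among microRNAs of at least 10 CPM. Scripts were tested on simulated data. Sequences come from RefSeq (GRCm38.p6). Alternatives covered DESeq2 1.42.0, its size factors, no scaling, filters, a joint fit, the code letter, the replicate number as a block, the first within-group component as a covariate, the sets of KO-water libraries and leaving out each library; restricting the ratios to those sets or to 1 code letter was chosen after seeing the data. The members and lists were chosen with earlier results of these data known. P-values measure the spread between libraries named as biological replicates, and precision is limited by depth for members under 30 CPM. MiR-34a-3p had 5 to 61 and miR-449a-5p 21 to 87 counts per library.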

Additional observations from a re-analysis of the deposited data

Results flagged for a closer look

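MiR-34a-3p stood out for corticosterone because both KO-corticosterone libraries lay above the mean of all their water controls and every WT-corticosterone library below that of its own. The libraries had 12.92 and 12.3 CPM in KO-corticosterone, against 4.309 to 18.18 CPM in KO-water, and 7.975 to 12.63 CPM in WT-corticosterone, against 9.736 to 18.25 CPM in WT-water. The knockout part depends on the KO-water libraries used. Both KO-corticosterone values lay above replicates 3, 4 and 6 (4.309 to 10.65 CPM). Against replicates 1, 2 and 5 (12.56 to 18.18 CPM), 1 lay below all and the other near the lowest. The mean deviation differed by 0.606 on the log2 scale (KO minus WT); that sign pattern itself was not tested. The interaction term of the fit across all microRNAs gave 0.46 ± 0.43 with an adjusted p of 0.72 by edgeR. Over 60 groups of values examined for a library far from the rest of its group, 0 were found, where chance gives about 1 in 20.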

How the results depend on the processing

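MiR-449a-5p kept its direction and its call in both wild-type comparisons under every setting tried except letter G alone for exercise; letter H for corticosterone, 1 library against 2, is not counted. Counts of members called moved as follows, with the share of all microRNAs called in the same fit. With the within-group component as a covariate they were 2 for exercise in WT (49.9%), 1 for exercise in KO (23.7%), 1 for KO-water against WT-water (46.8%) and 1 for the corticosterone interaction (16.3%). Within letter G they were 0 for exercise (1.74%) and 1 for corticosterone (25.2%) in WT, and within letter H 3 for exercise (37.9%). Without a filter corticosterone in WT gave 1 (14%). With KO-water replicates 3, 4 and 6 only they were 2 for exercise in KO, 2 for KO-water against WT-water, and 1 and 2 for the exercise and corticosterone interactions. Ratio calls were then 9, and were 0 with replicates 1, 2 and 5 only, 0 within letter G and 0 within letter H, where groups of at most 2 libraries allow no call.

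The replicate numbers were not taken to pair the mice: the lowest correlation between same-numbered libraries was -0.54 to -0.04 over the 7 comparisons, under 0.1 in each, and the highest 0.63. With the replicate number as a block, 1 member was called for corticosterone in WT (31.8% of all microRNAs) and 1 for exercise in WT (6.87%). For corticosterone in KO 2 were called (13.5%), miR-34c-5p at 1.17 and miR-34c-3p at 1.94. In that KO fit only numbers 1 and 2 were shared, so its calls rest on 2 libraries of each group. There miR-34c-5p was at 976.1 and 2942 CPM in KO-corticosterone, against 875 and 689 CPM in KO-water replicates 1 and 2.

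Signs turned for values near 0. MiR-34c-5p for exercise in WT was 0.23 with the block. MiR-34b-3p for corticosterone in WT was -0.04 in DESeq2 (-0.040), -0.041 with its size factors, -0.11 without scaling, -0.034 without a filter, -0.062 in the joint fit, -0.12 with the component and -0.65 within letter H, where miR-34b-5p was -0.46. With KO-water replicates 1, 2 and 5 only, miR-34c-5p for exercise in KO was 0.25, and for KO-water against WT-water miR-34c-3p was -0.22, miR-449a-5p -0.031, the miR-34a arm ratio -0.16, the miR-34b arm ratio 0.15 and the 5p ratio of miR-34b over miR-34c 0.022. With replicates 3, 4 and 6 only, miR-34c-5p for corticosterone in KO was -0.055.

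Leaving out 1 library in turn gave 1 to 3 members called for exercise and 1 to 4 for corticosterone in WT. It gave 0 to 1 for KO-water against WT-water, 0 to 0 for the other comparisons and interactions, and 0 to 6 ratio calls. With all libraries kept, 32.5% of all microRNAs tested passed for exercise in WT, 41.9% for corticosterone in WT and 0% for KO-water against WT-water. The share of all microRNAs called without 1 library is not given. The ranges of member counts therefore do not set the members apart from all microRNAs. Signs turned for miR-34c-5p (exercise in WT, -0.204 to 0.18), miR-34b-5p (corticosterone in WT, -0.000 to 0.404), miR-34b-3p (corticosterone in WT, -0.221 to 0.166), miR-34c-5p (corticosterone in KO, -0.655 to 0.905) and miR-34c-3p (corticosterone in KO, -0.498 to 1.482). The cause of these changes was not tested.

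Of 57 other member and ratio values, 41 changed sign under some setting; 0 passed with all replicates kept and 2 without 1 replicate. Fold changes are relative to the scaling: without scaling factors the median of all microRNAs moved to -0.067 for corticosterone in WT, against 0.059, to -0.07 for exercise, against 0.039, and to -0.219 for KO-water, against -0.084.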
